A study of Bos taurus with 7 samples.

Results

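Fatty acid oxidation is the breakdown of fatty acids to acetyl-CoA, and its transcripts are described here in the bovine corpus luteum, the progesterone-secreting gland that forms from an ovulated follicle. The genes are a list of 36 enzymes, carriers and import factors of mitochondria and peroxisomes, chosen by their known part in the pathway. Of these, 35 were matched by symbol in a table of 19539 entries, each on a single entry, and ETFB, a subunit of the electron transfer flavoprotein, was not matched and is not analysed here. Long-chain fatty acids are first bound to coenzyme A, enter mitochondria through the carnitine shuttle and are shortened in repeated rounds of dehydrogenation, hydration, dehydrogenation and thiolysis, with electrons passed on to the respiratory chain. Peroxisomes shorten very long and branched chains with their own oxidases and hand the products to mitochondria. In a steroid-secreting gland mitochondria also cleave cholesterol to start progesterone synthesis, and lipid droplets store fatty acids as cholesterol esters.

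Whole luteal tissue of estrous cycle day 4 (3 libraries) was compared with that of day 6 (4 libraries). The cows of both groups had the same synchronisation with a progesterone device, a prostaglandin F2α injection of 25 mg and a gonadotropin-releasing hormone dose of 86 mcg, and per the labels received no other treatment. Neither breed nor age is in the labels, and nothing there says that each library is a separate cow, so p-values measure the spread between these samples. Glands of day 4 were taken at slaughter and those after day 6 through the vaginal wall, with no route stated for day 6 itself, so the day and the collection route cannot be told apart. Polyadenylated RNA was read with stranded single reads of 100 nt. The study's title puts the question as how the gland becomes able to regress, with apoptosis and immune mechanisms in view.

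The authors' deposited table gives 1 mean per day in TPM, a share of all transcripts corrected for transcript length, the standard error of a log2 fold change, a Wald statistic, and p-values. It holds no value per library, so the spread of a day's mean and the sequencing depth are unknown, and no test across libraries was run. A log2 fold change is day 6 over day 4, computed as the Wald statistic times its standard error, and is printed as value ± standard error. A gene is called when the adjusted p-value in the authors' deposited table (Benjamini-Hochberg over 19485 tested entries, DESeq2) is under 0.05. Intervals are 95% Wald intervals.

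Scaling matters for genes that change as little as most of these. The 13 mitochondrially encoded genes held 10.3% of all mean TPM on day 4 and 29.2% on day 6, which lowers the TPM of every other gene on day 6. Over the 10599 entries with a mean of 5 TPM or more, the median gap between the fold change used here and the plain log2 ratio of TPM was 0.21, and subtracting that shift gives the TPM scale. Rescaling both days to the TPM outside the mitochondrially encoded genes gives the nuclear TPM scale, which lies 0.34 above the TPM scale. Over all entries 803 were called higher and 2020 lower (28.4% of calls higher), against 299 and 3829 on the TPM scale (7.24%) and 1848 and 1595 on the nuclear TPM scale (53.7%). A call with no scale named is that of the authors' deposited table.

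Fatty acid oxidation transcripts were present throughout, and those that changed were higher on day 6. Called higher were CRAT, which moves acetyl groups between coenzyme A and carnitine, ACADL, the long-chain acyl-CoA dehydrogenase, ETFDH, which feeds electrons into the respiratory chain, HADH, a hydroxyacyl-CoA dehydrogenase, ABCD3, a fatty acid importer of peroxisomes, and PEX5, the receptor for peroxisomal matrix proteins. These are 6 of 35 (17.1%), beside 4.12% of all tested entries called higher. No member was called lower (0 of 35), beside 10.4% of all tested entries, and 1, CPT1C, was lower at an unadjusted p under 0.05 in the authors' deposited table. At that unadjusted threshold 16 members were higher, beside 11% of all entries higher and 17.5% lower. Among entries averaging at least 1 TPM, which includes every matched member, 5.48% were called higher and 11.6% lower. Among those averaging at least 20 TPM, 7.32% were called higher and 9.14% lower, and 4 of the 21 members at that level were called higher.

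The count rests on scaling and on the test. On the TPM scale 2 members were called higher (ACADL and CRAT) and 1 lower (CPT1C), and on the nuclear TPM scale 11 were higher and 0 lower, the added ones being ACAA1, ACAT1, CPT2, HADHA and SCP2. Of all tested entries the TPM scale called 1.53% higher and 19.7% lower, and the nuclear TPM scale 9.48% higher and 8.19% lower. The median log2 fold change of the 35 members was 0.41, with 29 values above 0 and 6 below, where the median over all tested entries was -0.04 and that of entries averaging at least 1 TPM was 0.03. On the TPM scale the median was 0.19, with 23 values above 0 and 12 below. The standard errors of the members ran from 0.14 to 0.66 with a median of 0.26, close to the 0.25 of entries averaging at least 1 TPM. At that median standard error a log2 change of 0.69 is the smallest that the adjusted threshold would call.

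**Figure D1:**
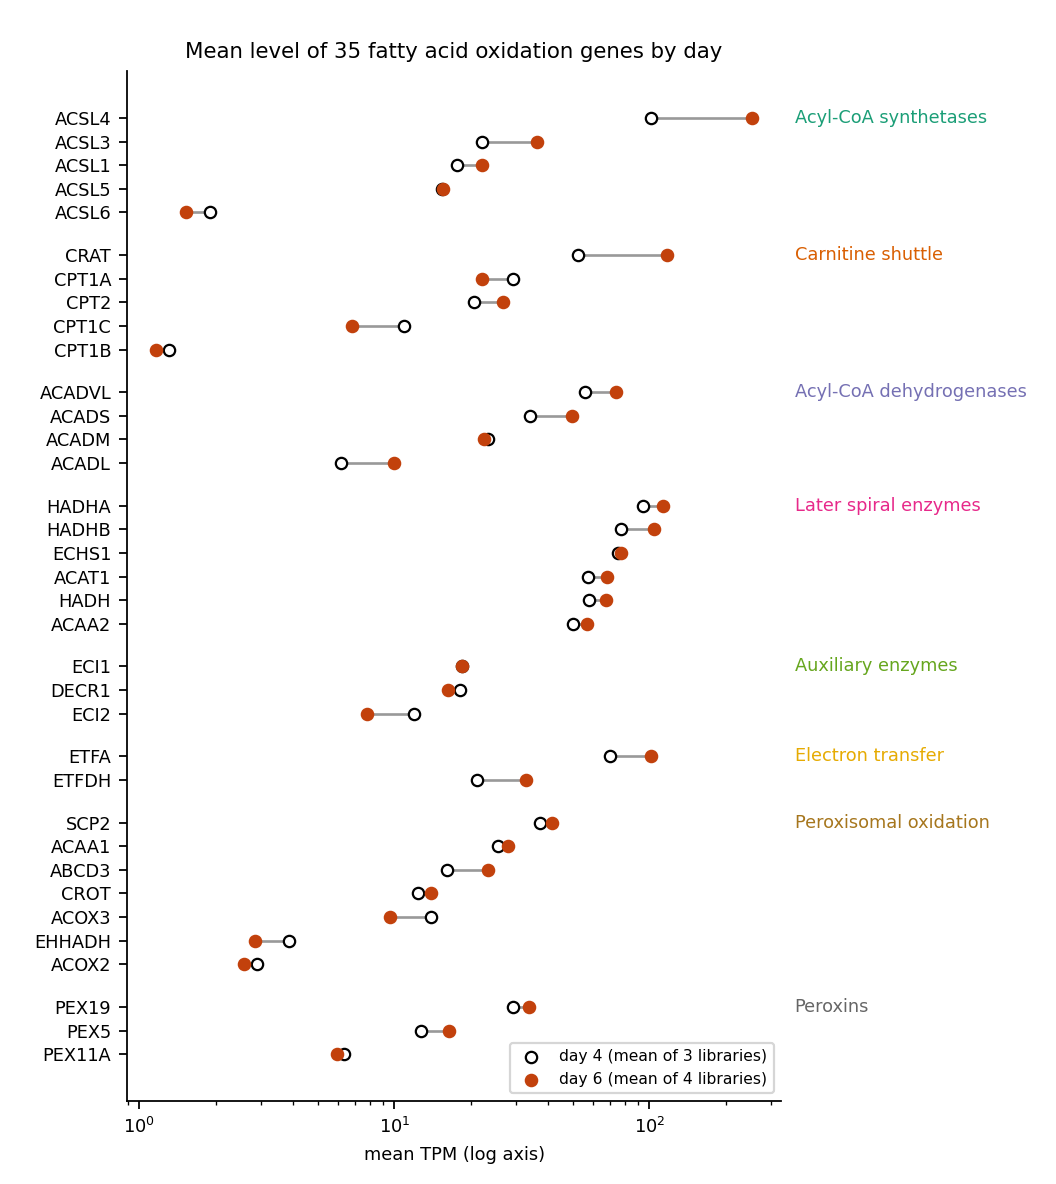
Mean TPM (log axis) of the 35 matched genes on day 4 (open, mean of 3 libraries) and day 6 (filled, mean of 4 libraries), grouped by role and ordered by level. No error bars are drawn because the deposited table holds no library values. ACSL4 (not called) and CRAT (called) show the widest rightward gaps, while 12 genes, CPT1A, CPT1C, ECI2, ACOX3 and EHHADH among them, lie to the left on day 6.

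The 35 genes summed to 1105 TPM on day 4 and 1499 TPM on day 6, or 0.111% and 0.15% of all mean TPM. ACSL4 made up 38.1% of that gain and CRAT 16.5%. Without this pair the sums were 951 and 1129 TPM, a ratio of 1.19 in place of 1.36. Levels spread widely, from CPT1B at 1.23 TPM over all libraries to ACSL4 at 188 TPM, and the median member lay at the 78.5th percentile of all entries. The sums have no error, since they are built from group means.

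Acyl-CoA synthetases, which bind long-chain fatty acids to coenzyme A, had the highest single transcript of the list. ACSL4, the isoform that prefers arachidonic acid and other polyunsaturated chains, stood at 102 TPM on day 4 and 252 TPM on day 6 in the authors' deposited table (log2 1.59 ± 0.66, adjusted p = 0.0862) and was not called. Its interval of 0.29 to 2.89 is the widest of the list. ACSL3, which works at the endoplasmic reticulum and on lipid droplets, stood at 22 and 36.1 TPM there (log2 0.94 ± 0.43, adjusted p = 0.125). ACSL1, an isoform of liver, fat and muscle, had 17.7 and 22 TPM (log2 0.56 ± 0.34). ACSL5, which sits on mitochondria, had 15.4 and 15.5 TPM (log2 0.26 ± 0.17), and ACSL6, known from brain, had 1.9 and 1.52 TPM (log2 -0.18 ± 0.50), by the authors' deposited table. None of the 5 was called on any of the 3 scales. ACSL4 held 64.1% of the summed TPM of the family on day 4 and 77% on day 6. The order of the isoforms by level was the same on both days, with ACSL1 and ACSL5 next to each other.

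**Figure D2:**
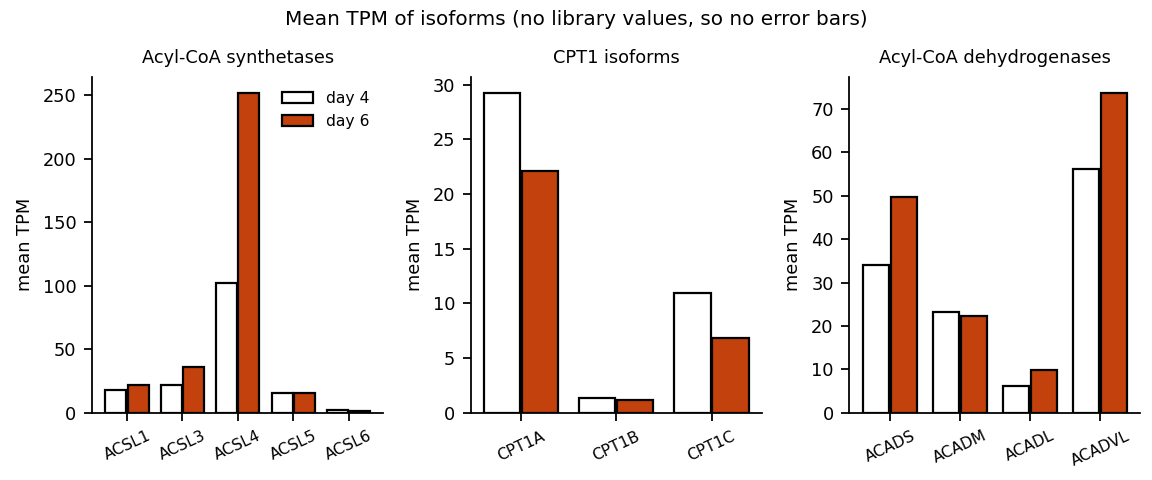
Mean TPM of the acyl-CoA synthetases, the CPT1 isoforms and the acyl-CoA dehydrogenases on day 4 (white bars) and day 6 (filled bars), each axis starting at 0. No error bars are drawn because library values are not in the table. ACSL4, CPT1A and ACADVL are the highest of their families on both days.

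The carnitine shuttle held the largest called change of the list, while none of its CPT1 enzymes was called in the authors' deposited table. CRAT rose from 52.5 to 117 TPM in the authors' deposited table (log2 1.39 ± 0.46, adjusted p = 0.0237), a call that also held on the TPM scale (adjusted p = 0.0497) and the nuclear TPM scale (adjusted p = 0.0114). In RefSeq's ARS-UCD2.0 annotation CRAT overlaps PTPA, a phosphatase activator that stood at 71 and 93.6 TPM in the authors' deposited table and was not called (log2 0.34 ± 0.15), and how reads shared between the pair were counted is not stated. The same annotation has 7 of the members overlapping another gene. CPT2, the inner membrane carnitine palmitoyltransferase, had 20.5 and 26.6 TPM in the authors' deposited table (log2 0.60 ± 0.26, adjusted p = 0.103) and was called only on the nuclear TPM scale.

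Of the outer enzymes, which set the pace of entry into mitochondria, CPT1A, the liver isoform, had 29.3 and 22.1 TPM in the authors' deposited table (log2 -0.19 ± 0.23, adjusted p = 0.631). Its interval ran from -0.63 to 0.26. CPT1B, the muscle isoform, stayed at 1.31 and 1.17 TPM there (log2 0.06 ± 0.25, and -0.16 on the TPM scale). CPT1C, the neuronal isoform of the endoplasmic reticulum, had 10.9 and 6.8 TPM in the authors' deposited table (log2 -0.47 ± 0.21, adjusted p = 0.11) and was called lower on the TPM scale only (adjusted p = 0.00845). CPT1A made up 70.5% of summed CPT1 TPM on day 4 and 73.5% on day 6. The ratio of CPT1A to CPT2 in mean TPM was 1.43 on day 4 and 0.833 on day 6, so the order of the outer and the inner enzyme differed between days, a difference that was not tested.

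Acyl-CoA dehydrogenases, which open each round for a given chain length, had fold changes above 0 in all 4 cases. ACADL rose from 6.19 to 9.94 TPM in the authors' deposited table (log2 0.89 ± 0.24, adjusted p = 0.00383), was called on every scale and was the least abundant of the family on both days. ACADVL, for very long chains and the most abundant, had 56.2 and 73.7 TPM there (log2 0.61 ± 0.28, adjusted p = 0.13). ACADS, for short chains, had 34.1 and 49.7 TPM by the authors' deposited table (log2 0.76 ± 0.37, adjusted p = 0.15). ACADM, the medium-chain enzyme, stood apart with 23.2 and 22.4 TPM there (log2 0.16 ± 0.14, and -0.05 on the TPM scale). Its interval of -0.11 to 0.44 is among the 3 that lie within 0.5 of 0, with those of DECR1 and PEX11A.

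The enzymes that finish each round were all abundant, averaging from 54 to 105 TPM, and their fold changes stayed between 0.24 and 0.66. HADH rose slightly, from 57.7 to 67.6 TPM in the authors' deposited table (log2 0.45 ± 0.16, adjusted p = 0.0302), a call absent on the TPM scale (adjusted p = 0.299). HADHA and HADHB encode the subunits of the mitochondrial trifunctional protein and are direct neighbours in RefSeq's ARS-UCD2.0 annotation. HADHA had 94.2 and 113 TPM in the authors' deposited table (log2 0.49 ± 0.21, adjusted p = 0.0886). HADHB had 77.4 and 104 TPM there (log2 0.66 ± 0.35, adjusted p = 0.185). Their ratio in mean TPM was 1.22 on day 4 and 1.09 on day 6.

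ACAT1, the acetoacetyl-CoA thiolase, had 57.4 and 68.3 TPM in the authors' deposited table (log2 0.47 ± 0.20, adjusted p = 0.104). ACAA2, the thiolase of medium and long chains, had 50 and 57 TPM there (log2 0.35 ± 0.26). ECHS1, the short-chain enoyl-CoA hydratase, had 75.5 and 77.2 TPM in the authors' deposited table (log2 0.24 ± 0.15), with an interval of -0.05 to 0.53. All 6 fold changes of this group also lay above 0 on the TPM scale.

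The auxiliary enzymes that prepare unsaturated chains had a summed level of 48.5 TPM on day 4 and 42.4 TPM on day 6, a ratio of 0.875 that turned to 1.11 on the nuclear TPM scale. ECI1, the mitochondrial enoyl-CoA isomerase, had 18.4 TPM on both days in the authors' deposited table (log2 0.21 ± 0.18, and -0.01 on the TPM scale). DECR1, the dienoyl-CoA reductase, had 18.1 and 16.3 TPM there (log2 0.10 ± 0.17, and -0.11 on the TPM scale). ECI2, an isomerase found in mitochondria and peroxisomes, had 12 and 7.79 TPM in the authors' deposited table (log2 -0.40 ± 0.25, adjusted p = 0.289). None was called on any of the 3 scales.

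Electron transfer from the dehydrogenases to ubiquinone is carried by ETFA, ETFB and ETFDH. ETFDH, the ubiquinone oxidoreductase, rose from 21.1 to 32.7 TPM in the authors' deposited table (log2 0.84 ± 0.30, adjusted p = 0.0389), a call absent on the TPM scale (adjusted p = 0.125). ETFA had 70.2 and 102 TPM there (log2 0.79 ± 0.37, adjusted p = 0.138). Both fold changes were near that of ACADL, and the median of this pair, 0.81, was the highest of the 8 roles.

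**Figure D3:**
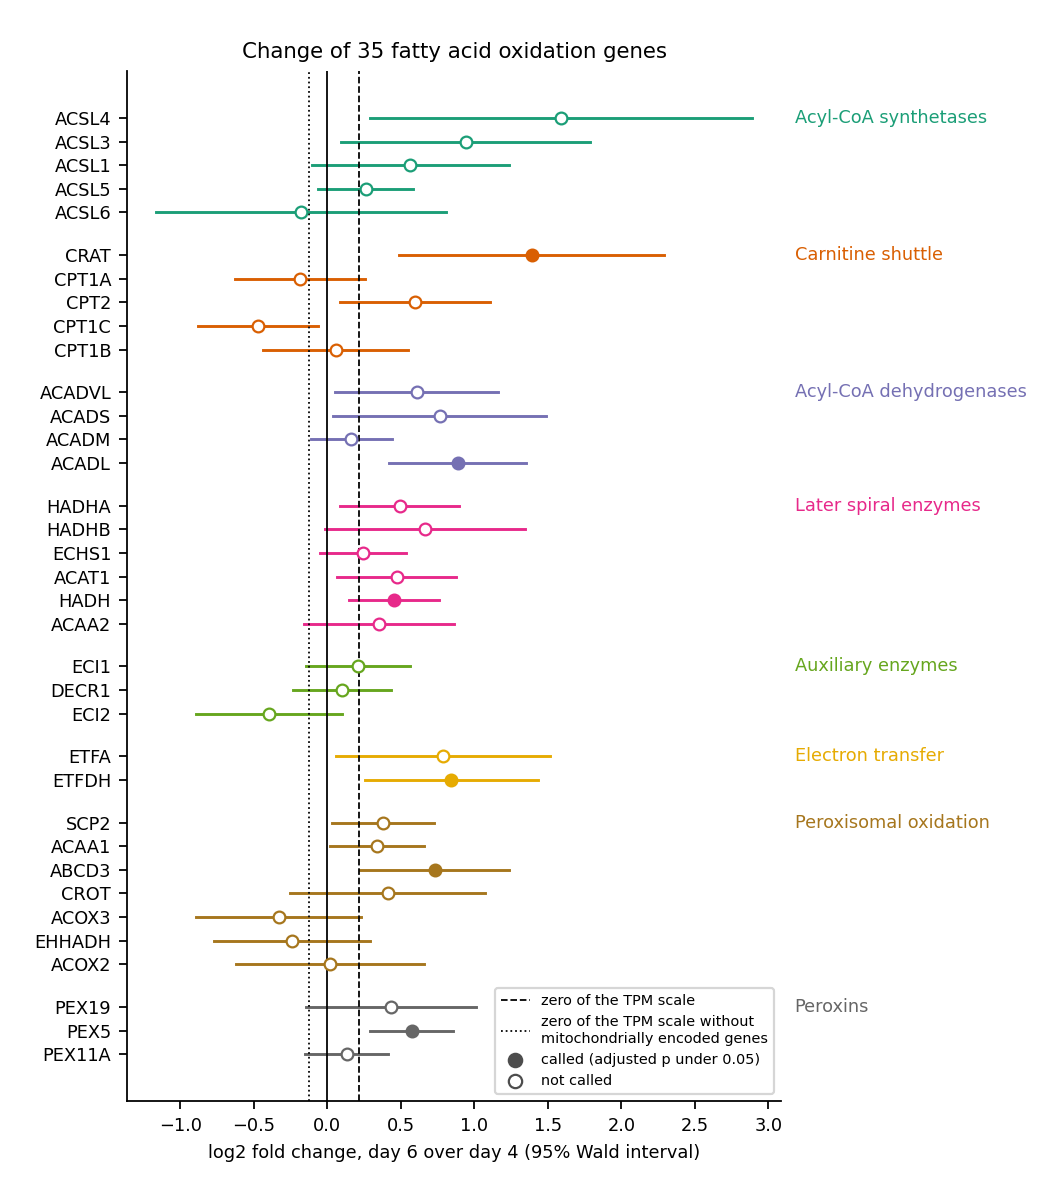
Log2 fold change of each gene, day 6 over day 4, with its 95% Wald interval, grouped by role. Filled points are the 6 called genes, and the dashed and dotted lines mark where 0 falls on the TPM scale (0.21) and on the nuclear TPM scale (-0.13). Intervals of ACSL6, CPT1A, ECI2, ACOX3 and EHHADH span 0 with point values below it.

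Among peroxisomal enzymes of the list the importer ABCD3 rose, and ACOX2 and ACOX3 did not pass the test. ABCD3 rose from 16 to 23.2 TPM in the authors' deposited table (log2 0.73 ± 0.26, adjusted p = 0.0371), absent as a call on the TPM scale (adjusted p = 0.148). The branched-chain oxidases were lower in abundance. ACOX3 had 13.9 and 9.58 TPM in the authors' deposited table (log2 -0.33 ± 0.29), and ACOX2 had 2.9 and 2.57 TPM (log2 0.02 ± 0.33, and -0.20 on the TPM scale). EHHADH, the bifunctional hydratase and dehydrogenase, had 3.86 and 2.84 TPM there (log2 -0.24 ± 0.27). These 3 genes stood below the other peroxisomal enzymes of the list on day 6.

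The thiolases were more abundant. SCP2, whose gene encodes both a thiolase and the sterol carrier protein that binds cholesterol, had 37.4 and 41.6 TPM in the authors' deposited table (log2 0.38 ± 0.18, adjusted p = 0.131). ACAA1, the straight-chain thiolase, had 25.6 and 28 TPM there (log2 0.34 ± 0.16, adjusted p = 0.146). Both were called on the nuclear TPM scale only. CROT, which exports medium-chain products as carnitine esters, had 12.4 and 13.9 TPM in the authors' deposited table (log2 0.41 ± 0.34), against a CRAT to CROT ratio in mean TPM of 4.25 on day 4 and 8.42 on day 6.

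Peroxins build the organelle. PEX5 had the smallest adjusted p of the list and rose from 12.8 to 16.3 TPM in the authors' deposited table (log2 0.57 ± 0.14, adjusted p = 0.00158). On the TPM scale it missed the threshold (adjusted p = 0.0562). PEX19, the chaperone of peroxisomal membrane proteins, had 29.1 and 33.8 TPM in the authors' deposited table (log2 0.43 ± 0.30). PEX11A, which promotes peroxisome division, had 6.32 and 5.96 TPM there (log2 0.13 ± 0.14, and -0.08 on the TPM scale). Roles placed in peroxisomes had a median of 0.36 over 10 genes, and those of mitochondria and activation had 0.47 over 25, a difference that was not tested.

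**Figure D4:**
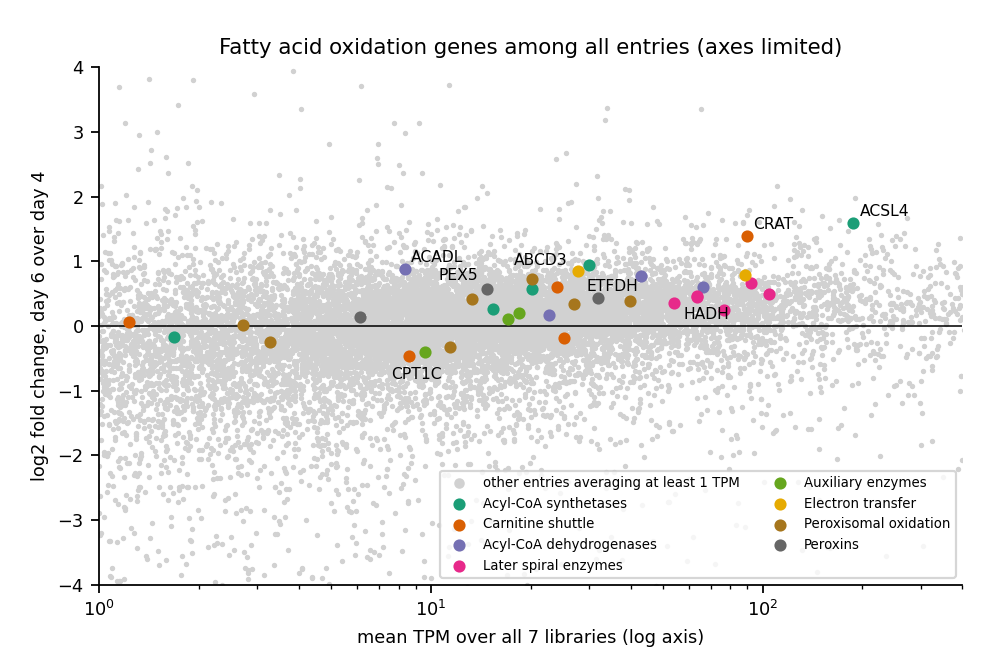
Log2 fold change, day 6 over day 4, against mean TPM over all 7 libraries (log axis) for entries averaging at least 1 TPM (grey) and the 35 genes (coloured by role), with both axes limited. The called genes are labelled, with ACSL4 and CPT1C, and the 2 largest fold changes, of ACSL4 and CRAT, belong to abundant genes.

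The wider pathway was followed with 7 further lists, of which 112 of 114 symbols were matched. Their counts stand beside 4.12% of all tested entries called higher and 10.4% lower. Those shares were 1.53% and 19.7% on the TPM scale, and 9.48% and 8.19% on the nuclear TPM scale. Of other mitochondrial oxidation genes 6 of 20 were called higher and 0 lower, with a median of 0.39. The TPM scale gave 1 higher and 2 lower (ACSF2 and ACSS1), and the nuclear TPM scale 8 higher and 0 lower. HSD17B10, a hydroxyacyl-CoA dehydrogenase of branched chains, rose from 66.3 to 113 TPM in the authors' deposited table (log2 0.99 ± 0.30, adjusted p = 0.011) and was the only one of the 6 also called on the TPM scale. ACADSB, the dehydrogenase of short branched chains, rose from 30.1 to 51.1 TPM there (log2 0.90 ± 0.28). PCCB and MMUT, which carry the propionyl-CoA of odd chains into the citric acid cycle, rose as well in the authors' deposited table (39.7 to 65.2 TPM and 20.8 to 29.5 TPM), as did ACAD10 and the thioesterase ACOT13. SLC25A20, the carnitine carrier between CPT1 and CPT2, stood at 12.2 and 13.1 TPM there (log2 0.32 ± 0.16, adjusted p = 0.174) and was called higher on the nuclear TPM scale only.

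Other peroxisomal enzymes were called higher in 7 of 23 cases and lower in 0, with a median of 0.40. The counts were 5 higher and 1 lower on the TPM scale, and 9 and 0 on the nuclear TPM scale. PECR, the peroxisomal trans-enoyl-CoA reductase, rose from 30.8 to 54.1 TPM in the authors' deposited table (log2 1.05 ± 0.25, adjusted p = 0.000656). CAT, the catalase that removes hydrogen peroxide made by the oxidases, rose from 52.4 to 65.3 TPM by the authors' deposited table (log2 0.54 ± 0.12, adjusted p = 0.000143). FAR1, which makes fatty alcohols for ether lipids, rose from 30.8 to 52.2 TPM there (log2 0.99 ± 0.30, adjusted p = 0.0119). TYSND1 and LONP2, peroxisomal proteases, rose as well, with log2 changes of 0.69 and 0.43. PECR, CAT, FAR1 and TYSND1 were also called higher on the TPM scale and LONP2 was not, and HACL1 was called lower on that scale only. HSD17B4, the multifunctional enzyme of branched chains, had 45.1 and 42.2 TPM in the authors' deposited table (log2 0.12 ± 0.14, and -0.09 on the TPM scale).

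Of other peroxins 1 of 14 was called higher, PEX13, which docks loaded PEX5 at the membrane (12.2 to 16.3 TPM in the authors' deposited table, log2 0.64 ± 0.23, adjusted p = 0.0385, absent on the TPM scale). None was called lower, and PEX10, a ubiquitin ligase of receptor recycling, had the next smallest adjusted p there (27.4 to 13.1 TPM, log2 -0.85 ± 0.33, adjusted p = 0.065) and was called lower on the TPM scale. The median of this list was 0.12, and -0.10 on the TPM scale, where 0 were called higher and 1 lower, against 3 and 0 on the nuclear TPM scale. Ketone body genes had 1 of 5 called higher, BDH2 (50.1 to 59.4 TPM in the authors' deposited table, log2 0.47 ± 0.16, adjusted p = 0.0316, absent on the TPM scale), and 0 lower. OXCT1, which activates ketone bodies for use, had 27.1 and 21.5 TPM there (log2 -0.18 ± 0.12) and was called lower on the TPM scale only.

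Genes of fatty acid uptake and binding showed no common direction, with 0 of 12 called higher, 1 lower and a median of 0.12, which turned to -0.09 on the TPM scale. There 0 were called higher and 3 lower, and on the nuclear TPM scale 1 higher and 1 lower. LPL, the lipase that frees fatty acids from circulating lipoproteins, fell from 86.4 to 26.3 TPM in the authors' deposited table (log2 -1.51 ± 0.33, adjusted p = 0.000204). That call held on all 3 scales. SLC27A5, a fatty acid transport protein, came next with 2.35 and 1.03 TPM there (log2 -0.997 ± 0.45, adjusted p = 0.116) and was called lower on the TPM scale only, as was SLC27A1. The acyl-CoA binding protein DBI had 434 and 637 TPM there (log2 0.80 ± 0.50), a level above every member.

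Regulators of the pathway were called in both directions, 4 of 21 higher and 3 lower, against 1 and 4 on the TPM scale and 8 and 2 on the nuclear TPM scale. Of all tested entries 4.12% were called higher and 10.4% lower, with 19.7% lower on the TPM scale. The counts of lower regulators are near those shares. PPARG fell from 3.04 to 1.08 TPM in the authors' deposited table (log2 -1.32 ± 0.36, adjusted p = 0.00426). The coactivator PPARGC1A fell at a very low level, from 0.221 to 0.055 TPM there (log2 -2.41 ± 0.73, adjusted p = 0.0129). Both calls held on all 3 scales. The related coactivator PPARGC1B had 4.27 and 9.85 TPM in the authors' deposited table (log2 1.47 ± 0.62, adjusted p = 0.0902). PPARGC1B was not called on any of the 3 scales. RXRA, the partner of the PPAR receptors, fell from 16.6 to 9.03 TPM by the authors' deposited table (log2 -0.71 ± 0.26, adjusted p = 0.0458), a call absent on the nuclear TPM scale (adjusted p = 0.0988). PPARA, the receptor best known for inducing oxidation genes in liver, had 3.83 and 4.27 TPM there (log2 0.38 ± 0.28) and was not called, nor was ESRRA (15.1 and 19.2 TPM). PPARD (21.7 and 25 TPM in the authors' deposited table) was called higher on the nuclear TPM scale only (adjusted p = 0.0153).

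Higher on day 6 was LPIN1, a phosphatidate phosphatase and coactivator (12.7 to 33 TPM in the authors' deposited table, log2 1.66 ± 0.51, adjusted p = 0.0134), on all 3 scales. ACACA, whose product malonyl-CoA inhibits CPT1, rose from 11.4 to 17.7 TPM there (log2 0.88 ± 0.29, adjusted p = 0.0243). The related ACACB had 22.4 and 23.7 TPM there (log2 0.14 ± 0.19, adjusted p = 0.679) and was not called on any of the 3 scales. SIRT3, a mitochondrial deacetylase, rose by the authors' deposited table from 13.8 to 23.4 TPM (log2 0.99 ± 0.34, adjusted p = 0.0324). PRKAA1, a catalytic subunit of AMP kinase, rose there from 15.7 to 19.3 TPM (log2 0.44 ± 0.15, adjusted p = 0.038). The calls of ACACA, SIRT3 and PRKAA1 were absent on the TPM scale.

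**Figure D5:**
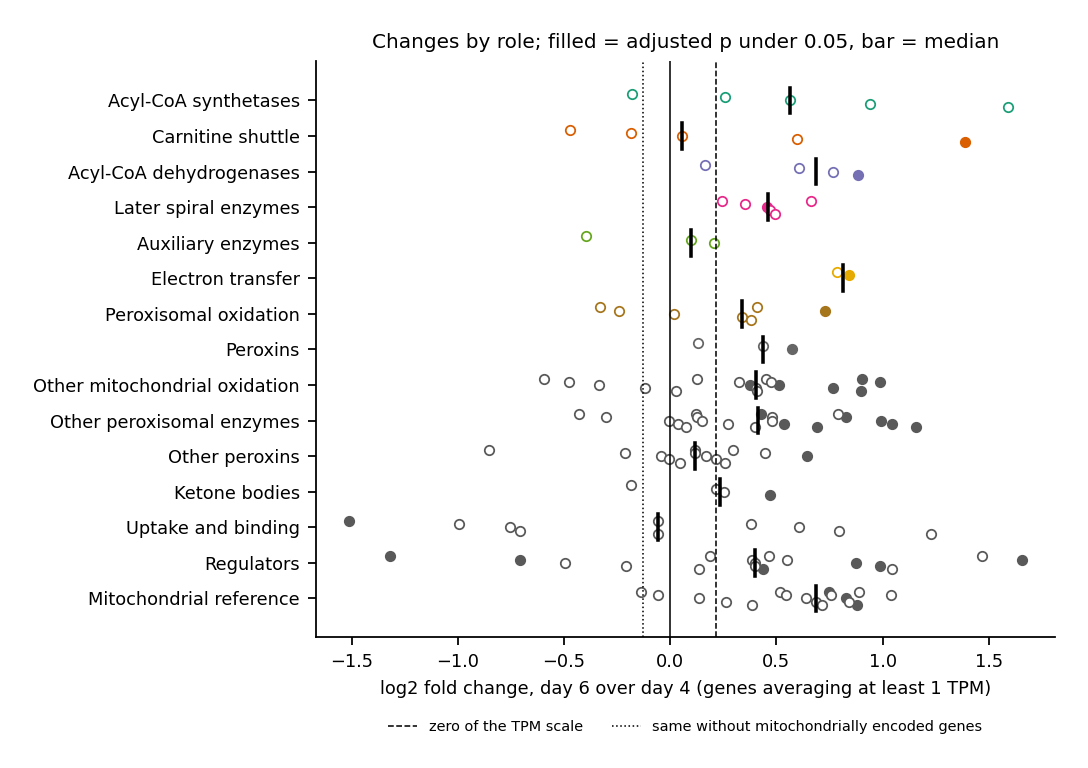
Log2 fold changes, day 6 over day 4, of genes averaging at least 1 TPM, by role (coloured, the 35 genes) and by the 7 further lists (grey). Filled points were called, black bars are medians of the genes drawn, and the dashed and dotted lines mark 0 on the TPM scale and on the nuclear TPM scale. Called genes of the mitochondrial and peroxisomal lists lie to the right of 0. The only called gene of uptake and binding, LPL, lies to the left, and those of regulators lie on both sides.

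General mitochondrial genes were followed for reference. Of 17 matched genes for membrane channels, import, chaperones and citrate synthase, 3 were called higher (HSPA9, TUFM and LRPPRC) and 0 lower, with a median of 0.69. No call was made among them on the TPM scale, and on the nuclear TPM scale 6 were higher and 0 lower. Their summed TPM had a ratio of 1.35 between days (1.71 on the nuclear TPM scale), beside 1.36 (1.72) for the fatty acid oxidation genes. The nearness of these ratios rests on ACSL4 and CRAT, without which the ratio of the fatty acid oxidation genes was 1.19. The median log2 fold change of all matched fatty acid oxidation genes, 0.41, was below the 0.69 of the reference genes, a difference that was not tested. CS, citrate synthase, stood at 104 and 164 TPM in the authors' deposited table (log2 0.89 ± 0.46) and was not called. The part that a change in mitochondrial content has in the members' values was not tested.

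Marker levels of several cell types also differed between days. In bulk tissue fewer cells of a type cannot be told apart from less RNA per cell. The 8 markers of steroidogenic luteal cells were all expressed, and their sum was 13589 TPM on day 4 and 25237 TPM on day 6 with 2 of 8 called higher, STAR and SCARB1, the latter not on the TPM scale (adjusted p = 0.0545). Markers of pericytes and smooth muscle summed to 1824 and 500.2 TPM with 3 of 6 called lower. Those of fibroblasts (11690 and 9954 TPM, 2 of 6 lower), endothelium (307 and 238 TPM, 1 of 8 lower), macrophages (66.2 and 30.1 TPM, 2 of 6 lower) and lymphocytes (14.8 and 4.84 TPM, 1 of 6 lower) had lower sums on day 6. On the nuclear TPM scale the ratio of the fibroblast sum, 0.852, turned to 1.08, and that of the endothelial sum, 0.774, to 0.981. Over all tested entries 4.12% were called higher and 10.4% lower, the latter near the 12.5% of the endothelial markers. No marker of these lists was called in the other direction. On the TPM scale more of the pericyte and smooth muscle (4), macrophage (4), lymphocyte (4) and endothelial (2) markers were called lower, beside 19.7% of all tested entries. The part of cell composition in the oxidation genes was not tested.

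Markers of tissues that use particular isoforms were followed as well. Adipocyte markers summed to 6.24 and 6.87 TPM with 0 of 5 called, 2 fold changes above 0 and 3 below. Among them LEP was at 0.0041 TPM on day 4 and 0 on day 6. Striated muscle markers summed to 9.5 TPM on day 4 and 9.51 TPM on day 6 with 1 of 7 called higher and 2 lower, beside the low CPT1B. Their fold changes were below 0 in 6 of 7 cases, with a median of -1.06. The exception, TNNT1, rose from 2.6 to 6.82 TPM in the authors' deposited table. Over all tested entries 4.12% were called higher and 10.4% lower. Neuronal markers summed to 34.8 and 6.4 TPM with 2 of 6 called lower, beside 10.4% of all tested entries. Nearly all of the drop in the sum was SYT1 (30.9 to 3.33 TPM in the authors' deposited table). SNAP25 was the only 1 of the 6 with a fold change above 0 (2.32 and 2.9 TPM there, adjusted p = 0.521). NEFL was at 0.018 TPM on day 4 and 0 on day 6. The drop, mostly SYT1, stands beside the lower mean of CPT1C, the neuronal isoform, and its part in the CPT1C mean was not tested. Red cell markers summed to 15.5 and 4.49 TPM with none of 4 tested called.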

How the data were processed

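Polyadenylated RNA of whole bovine luteal tissue was sequenced in 7 libraries (day 4, 3; day 6, 4). Per the submitters' processing notes the authors used FastQC, DESeq2 and the build ARS-UCD1.2. For aligner, counter and annotation the sources used here give no name. The deposited means were taken as TPM because they sum to 999999 on 1 day and 999998 on the other. The log2 column deposited by the authors is the log2 ratio of mean TPM after adding 1 (all 19539 entries, tolerance 1e-06). The authors' deposited score is a Wald statistic, and their deposited p-value is its two-sided normal p in 19485 entries, with 54 others left out. Depth per library is unknown, so counting error is not given.

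Fold changes, rescaled p-values and list summaries were computed with Python 3.11.15, pandas 2.3.3 and scipy 1.17.1. The refits were also run on simulated data, drawn as known changes plus normal noise at the deposited standard errors. That run checks the code and cannot judge the normal test with so few libraries. Calls use the authors' deposited adjusted p over all entries (DESeq2). Members and lists were chosen with earlier results of these data known. All members may be named, and of other lists the called genes, those with the 3 smallest adjusted p and 5 regulators fixed by name. PTPA, DBI, HSD17B4, HACL1, ACSF2, ACSS1, SLC27A1, SLC25A20, CS, SYT1, LEP, NEFL, PPARGC1B, ACACB, SNAP25 and TNNT1 were named after their values were seen. Symbols were matched in the authors' deposited table. Overlaps and neighbours were read from RefSeq's ARS-UCD2.0 table, which is not the authors' build, so no coordinates are printed. Of 66 marker genes in 10 lists 63 were matched. The design foresaw promoter and protein sequences, for which no table was used here. Some genes of the further lists count in their totals and are not reported here.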

Additional observations from a re-analysis of the deposited data

How the results depend on the processing

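Against 6 members called higher and 0 lower, the TPM scale gave 2 and 1, the nuclear TPM scale 11 and 0, an adjusted p under 0.01 gave 2 and 0, and an unadjusted p under 0.05 gave 16 and 1. Of all tested entries the main setting called 4.12% higher and 10.4% lower, the TPM scale 1.53% and 19.7%, and the nuclear TPM scale 9.48% and 8.19%. Those shares were 1.54% and 5.86% at adjusted p under 0.01, and 11% and 17.5% at unadjusted p under 0.05. A t distribution with 5 degrees of freedom gave 0 and 0, with 6 and 0 at unadjusted p under 0.05, and over all entries also 0, with 932 and 2201 before adjustment. A Wald test against a fold of 1.5 gave 0 and 0, with 1 (CRAT) and 0 before adjustment, and the normal test of the authors called 6. Of all tested entries that fold test called 0.28% higher and 2.84% lower, with 248 and 1484 entries before adjustment. Centring on the median entry and a minimum mean of 1 TPM each gave 6 and 0. Of the entries tested in each, centring called 3.36% higher and 11.1% lower, and the minimum mean 5.96% and 12.2%. The members' median, 0.41, ran from 0.19 to 0.54 over the alternatives that change it. On the TPM scale the sign turned for CPT1B (-0.16), ACADM (-0.052), ECI1 (-0.0075), DECR1 (-0.11), ACOX2 (-0.20) and PEX11A (-0.083), none of them called, and centring turned ACOX2 (-0.0099). The calls of ABCD3, ETFDH, HADH and PEX5 were lost on the TPM scale. No symbol of a member repeats, so that choice had no alternative. No paired analysis was possible because the table holds no library values, and leaving out each replicate was not run for the same reason. A missed call says little about genes with wide errors, such as ACSL4 with a standard error of 0.66.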
